A study of Arabidopsis thaliana with 24 samples.

Results

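The genes described here are the expansins and the xyloglucan endotransglucosylase/hydrolases (XTHs) of Arabidopsis thaliana. They were taken from the deposited table as every gene whose description names an expansin or a xyloglucan endotransglucosylase, or whose name is XTH or EXPA with a number, together with TCH4. This gave 49 of 24503 genes. All 49 were found by description and 44 also by name. They comprised 27 XTHs, 17 alpha-expansins (EXPA), 1 beta-expansin (EXPB1), 3 expansin-like A genes (EXLA1, EXLA2 and EXLA3) and 1 expansin-like B gene (EXLB1). A total of 42 of the 49 passed the filter on low counts, namely 24 XTHs, 13 alpha-expansins, EXPB1, the 3 EXLA genes and EXLB1. The other 7, EXPA12, EXPA17, EXPA20, EXPA21, XTH14, XTH20 and XTH26, held between 2 and 85 reads each over all 24 libraries and were not tested.

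RNA-seq was made from whole rosettes of 2 lines. The jaz4-1 line is a knockout in the Col-0 background carrying a T-DNA insertion in JAZ4, which encodes a repressor of jasmonate signalling; it is 1 insertion line. Col-0 is the wild type. Plants of both lines were 3 weeks old and grew on soil at 22 °C under a 12 h photoperiod with 100 µmol of light per m2 per s, with no other treatment. Rosettes were cut at ZT0, ZT6, ZT12 and ZT18, where ZT is the number of hours after dawn. Each of the 8 groups of line and time had 3 libraries, which the labels call biological replicates, and each was made from 6 pooled rosettes.

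The growing plant cell wall is a network of cellulose tied together by xyloglucan and embedded in pectin. XTH enzymes cut xyloglucan chains and rejoin them to other chains, or to water, while alpha- and beta-expansins loosen the contacts between wall polymers at acid pH without cutting them. The expansin-like proteins share the fold of expansins, but no wall-loosening activity is established for them. TCH4, the product of a touch-inducible gene that the deposited table calls XTH22, is an XTH whose transcript is known to respond within minutes to touch, heat and brassinosteroids, and several expansins are known from growing leaves.

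Library totals ran from 16832226 to 22644745 reads (median 20068902), with reads on 18959 to 21863 genes. jaz4-1 ZT6 replicate 2 and Col-0 ZT0 replicate 2 had the fewest detected genes. Counts of called members for each comparison are therefore also given without both where they change. Counts without overlap at ZT0, by family and of daily range are given with all libraries only. JAZ4 itself (AT1G48500) held 0 to 8 reads in the 12 jaz4-1 libraries and 0 to 23 reads in the 12 Col-0 libraries, with sums of 31 reads in jaz4-1 and 93 reads in Col-0. Its log2 fold change averaged over the times was -1.24 (SE 0.50; adjusted p 0.152) and did not pass the threshold. At ZT6 it held 4, 0 and 8 reads in jaz4-1 and 5, 5 and 5 in Col-0. The log2 fold change there was -0.57 (SE 0.99; adjusted p 0.777 by limma). It was -1.34 at ZT0, -1.48 at ZT12 and -1.55 at ZT18, without a call. Markers were checked against the labelled tissue. The summed level of 3 leaf mesophyll genes was 23610 to 50822 CPM (reads scaled to a common library total) in all libraries, and that of 6 floral genes was 0.119 to 2.14 CPM. Of 7 root genes, PYK10, an ER-body glucosidase gene of roots and seedlings, was at 49.8 to 448 CPM, while the other 6 together were at 0 to 1.06 CPM. The 49 wall genes took between 0.163% and 0.256% of the reads of a library. In whole rosettes, fewer cells of a type and less RNA per cell cannot be told apart.

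The 250 bases before the annotated start of 6 genes are printed here. XTH23, XTH30, TCH4 and EXLA1 were called as higher in jaz4-1 at ZT6 or on average over the times, XTH18 had the largest log2 fold change of the members at ZT6 without being called, and EXLA3 lies next to EXLA1. The windows of the other called members, EXPA16, EXPA3 and XTH8, are not shown. Sequences are from RefSeq, build TAIR10.1, written 5′ to 3′ on the gene's own strand. Capitals mark CGCGT, the core bound by CAMTA calmodulin-binding factors, and TTGAC, the core bound by WRKY factors, on either strand.
TCH4 (chr5:23308681-23308930, minus strand): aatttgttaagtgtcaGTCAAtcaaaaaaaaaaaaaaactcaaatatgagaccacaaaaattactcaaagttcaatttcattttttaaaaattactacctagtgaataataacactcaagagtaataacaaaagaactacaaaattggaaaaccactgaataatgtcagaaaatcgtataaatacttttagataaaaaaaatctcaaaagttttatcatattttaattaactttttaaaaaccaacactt
XTH23 (chr4:13128144-13128393, plus strand): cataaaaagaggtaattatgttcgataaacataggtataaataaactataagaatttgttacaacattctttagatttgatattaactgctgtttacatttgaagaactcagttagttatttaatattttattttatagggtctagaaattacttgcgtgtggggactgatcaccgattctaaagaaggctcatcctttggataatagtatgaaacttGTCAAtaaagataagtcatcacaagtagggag
XTH30 (chr1:11575070-11575319, plus strand): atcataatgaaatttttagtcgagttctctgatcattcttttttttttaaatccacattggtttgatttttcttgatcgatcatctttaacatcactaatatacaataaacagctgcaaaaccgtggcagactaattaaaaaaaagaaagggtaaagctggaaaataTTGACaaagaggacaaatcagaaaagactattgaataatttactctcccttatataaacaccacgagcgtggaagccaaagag
XTH18 (chr4:14827212-14827461, minus strand): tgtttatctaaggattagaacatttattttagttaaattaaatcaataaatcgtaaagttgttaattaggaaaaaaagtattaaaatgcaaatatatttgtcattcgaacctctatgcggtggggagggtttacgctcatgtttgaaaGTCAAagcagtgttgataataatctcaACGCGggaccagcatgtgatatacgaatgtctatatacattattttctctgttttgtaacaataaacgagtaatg
EXLA1 (chr3:16895916-16896165, plus strand): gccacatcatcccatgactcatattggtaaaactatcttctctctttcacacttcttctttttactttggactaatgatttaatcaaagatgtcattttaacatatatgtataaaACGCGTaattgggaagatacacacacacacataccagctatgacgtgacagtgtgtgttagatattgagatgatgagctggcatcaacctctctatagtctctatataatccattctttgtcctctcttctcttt
EXLA3 (chr3:16892452-16892701, plus strand): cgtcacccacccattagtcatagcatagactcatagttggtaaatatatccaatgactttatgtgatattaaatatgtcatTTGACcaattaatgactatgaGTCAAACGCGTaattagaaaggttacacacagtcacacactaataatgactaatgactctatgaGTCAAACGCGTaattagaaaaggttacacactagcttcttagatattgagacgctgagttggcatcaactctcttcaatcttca

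Among the 42 tested members, TTGAC occurred on either strand in 16 windows (38.1%), against 44.6% of the windows of 19493 expressed genes. Among XTHs it occurred in 12 of 24 windows. These were TCH4, XTH5, XTH6, XTH8, XTH15, XTH18, XTH19, XTH23, XTH29, XTH30, XTH31 and XTH32. Among expansins and expansin-like genes it occurred in 4 of 18, those of EXPA4, EXPA8, EXPA9 and EXLA3. CGCGT occurred in 4 of the 42 windows (9.52%), those of EXPA6, EXLA3, EXLA1 and XTH18, against 7.41% of all windows. The palindrome ACGCGT, which contains CGCGT on both strands, occurred in the windows of EXLA1 and EXLA3 (4.76% of members, 1.76% of all windows). The longest run of letters around it that both windows share, AAACGCGTAATT, stood in 4 of 19493 windows (0.0205%), these 2 included, with 1 copy in EXLA1 and 2 in EXLA3; this run was chosen from the windows themselves. CATGTG, an E-box read by brassinosteroid and PIF factors among others, occurred in 8 of 42 windows (19%, against 11% of all windows). Neither the G-box CACGTG (7.33% of all windows) nor the evening element AAAATATCT (2.5% of all windows) occurred in any of the 42. These matches describe the letters of the windows and nothing further.

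At ZT6, 6 h after dawn, 16 of the 24 XTHs and all 3 EXLA genes had positive log2 fold changes, jaz4-1 over Col-0, as had 3 of the 13 alpha-expansins. XTH23 and XTH30 rose in jaz4-1, and these 2 of 42 members passed an adjusted p of 0.05 (limma, adjusted over 19614 genes). In the whole transcriptome 2.95% of genes were called at ZT6, and 2.19% were called as higher in jaz4-1.

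XTH23 (AT4G25810, chr4:13128394-13129927, plus strand) encodes an XTH closely related to TCH4. At ZT6 it had 333, 355 and 447 normalised reads in the jaz4-1 libraries, against 44.4, 98.4 and 127 in the Col-0 libraries. Normalised reads are whole reads divided by 1 size factor per library, computed within each time, so they compare the lines at a time but not the times with each other. The lowest jaz4-1 library stood above the highest Col-0 library. The log2 fold change was 2.17 (SE 0.48; adjusted p 0.0150), on the log2(value + 1) scale used throughout. It kept its direction when any single ZT6 library was left out, with log2 fold changes of 1.74 to 2.49 over all 24 omissions. Omitting a library of another time cannot change this fold change, only its p-value. The adjusted p rose above 0.05, up to 0.105, without Col-0 ZT6 replicate 1 or jaz4-1 ZT6 replicate 2.

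XTH30 (AT1G32170, chr1:11575320-11578030, plus strand), another XTH, had 169.7, 241 and 213 normalised reads in jaz4-1 and 95.0, 82.5 and 91.4 in Col-0 at ZT6. Every jaz4-1 library was again above every Col-0 library, and the Col-0 values lay close together. Its log2 fold change was 1.19 (SE 0.28; adjusted p 0.0207). The call was lost, with an adjusted p of up to 0.110, when any of the 3 Col-0 ZT6 libraries or jaz4-1 ZT6 replicate 2 was left out. With both libraries of few detected genes left out, neither gene was called at ZT6, and 0 of 42 members were (1.21% of all genes).

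TCH4 (AT5G57560, chr5:23307006-23308680, minus strand) had the highest normalised reads of the members in jaz4-1 at ZT6. It held 9607, 9886 and 10803 normalised reads in jaz4-1, against 1618, 3118 and 4922 in Col-0. The jaz4-1 libraries lay within a narrow band, all above the Col-0 libraries, which were spread widely among themselves. The log2 fold change at ZT6 was 1.79 (SE 0.60; adjusted p 0.108), which did not pass the threshold.

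EXLA1 (AT3G45970, chr3:16896166-16897308, plus strand) followed the same pattern at ZT6. Its values were 1751, 1747 and 2166 normalised reads in jaz4-1, against 249, 467 and 839 in Col-0. The groups did not overlap, but the log2 fold change of 2.03 (SE 0.56) had an adjusted p of 0.0531. EXLA2, on chromosome 4, had 369, 557 and 651 normalised reads in jaz4-1 and 229, 277 and 364 in Col-0, with no overlap (log2 fold change 0.84, SE 0.24, adjusted p 0.0587). EXLA3, next to EXLA1 on chromosome 3, was far lower, at 33.2, 29.1 and 49.0 normalised reads in jaz4-1 and 12.4, 10.6 and 36 in Col-0, and its groups overlapped. Reads of EXLA1 may include reads of AT3G45980, which overlaps it on the other strand, because the strand setting of the counting was not given in the sources used here.

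**Figure D1:**
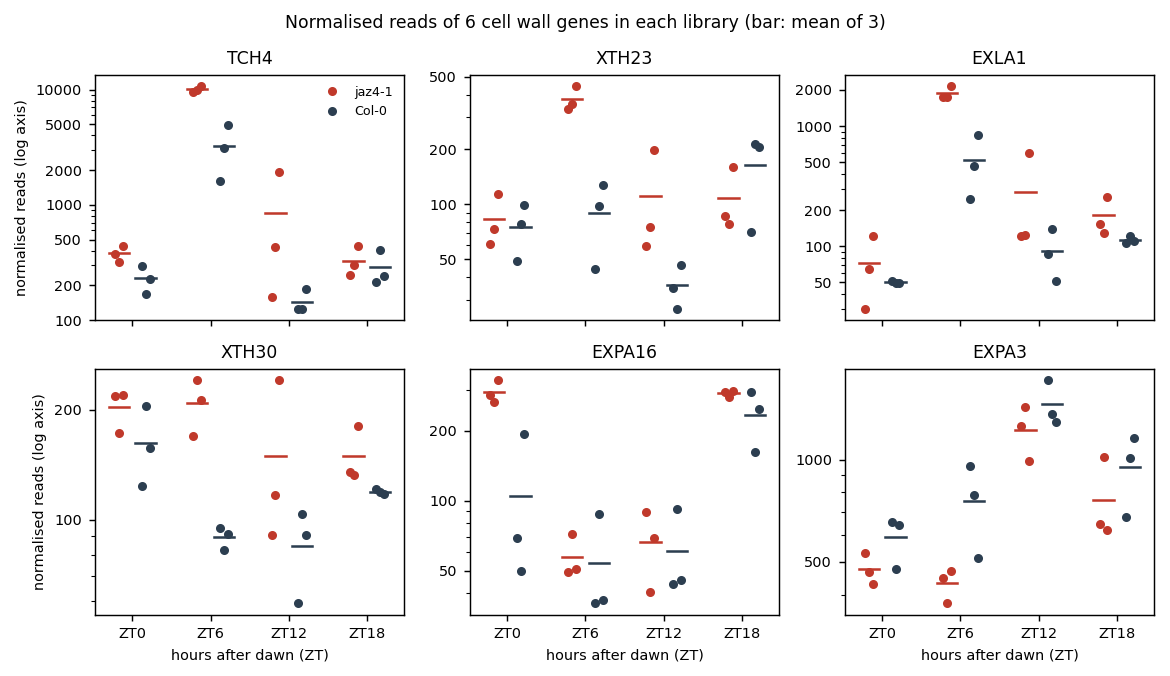
Normalised reads (log axis) of 6 members in each library by hours after dawn, with jaz4-1 in red on the left and Col-0 in dark blue on the right of each time; points are libraries and bars the mean of 3. Values are scaled within each time. At ZT6 all jaz4-1 points of TCH4, XTH23, EXLA1 and XTH30 lie above all Col-0 points, and at ZT12 the highest jaz4-1 point of these 4 genes is replicate 3.

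Seen over all 42 tested members at ZT6, 11 (26.2%) had every jaz4-1 library above every Col-0 library, against 13.9% of all genes. They were EXLA1, EXLA2, TCH4, XTH6, XTH18, XTH23, XTH24, XTH25, XTH27, XTH30 and XTH33, with log2 fold changes from 0.57 to 2.40. A further 4 (9.52%), all alpha-expansins, had every jaz4-1 library below every Col-0 library, against 12.9% of all genes. These were EXPA3, EXPA4, EXPA10 and EXPA15, with log2 fold changes from -1.26 to -0.42. By family, 9 of 24 XTHs were on the high side without overlap and 0 on the low side, while 0 of 13 alpha-expansins were on the high side and 4 on the low side. The median log2 fold change was 0.53 for the XTHs, 1.05 for the EXLA genes and -0.13 for the alpha-expansins, beside -0.04 for all genes. Under 12 settings of scaling, filter, pseudocount, test, block and libraries these medians ran from 0.28 to 0.54 for the XTHs, from 0.89 to 1.43 for the EXLA genes and from -0.27 to -0.09 for the alpha-expansins. Without jaz4-1 ZT6 replicate 2, the members without overlap numbered 12 on the high side (18.8% of all genes), XTH11 being added, and 7 on the low side (17.9% of all genes), with XTH8, XTH17 and XTH32 added. At an unadjusted p under 0.05, there were 17 of 42 members at ZT6 (20.4% of all genes), 11 of them higher in jaz4-1 (10.3% of all genes).

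**Figure D2:**
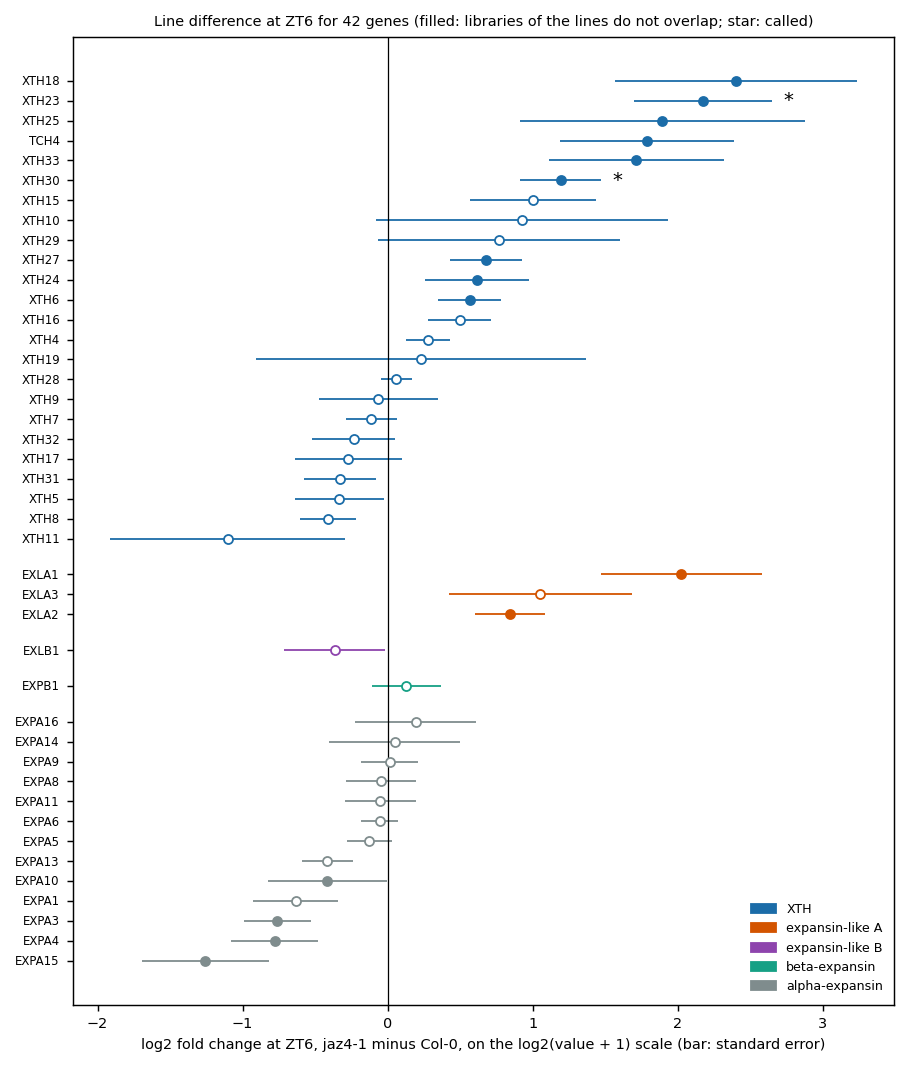
Log2 fold change at ZT6, jaz4-1 minus Col-0, of the 42 tested members, grouped by family and ordered within it; bars are standard errors, filled points are genes whose libraries do not overlap between the lines, and stars mark the 2 called genes. Filled points on the right are XTH and EXLA genes, and the 4 filled points on the left are alpha-expansins.

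The single values show how these groups were built. XTH18 had 128, 97.3 and 101 normalised reads in jaz4-1 and 5.16, 27.5 and 48.7 in Col-0, the largest log2 fold change of the members at ZT6 (2.40, SE 0.84, adjusted p 0.114). XTH25, which lies beside TCH4 on chromosome 5, had 73.8, 72.0 and 73.1 in jaz4-1 and 11.4, 23.1 and 25.5 in Col-0. XTH27 was one of the abundant XTHs, with 3878, 3694 and 4024 in jaz4-1 and 2371, 2373 and 2492 in Col-0. In all 3 genes the lines were separate at ZT6, and none of the 3 was called (adjusted p 0.114 to 0.283).

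On the low side, EXPA15 had 143, 177 and 257 normalised reads in jaz4-1 and 432, 464 and 445 in Col-0 (log2 fold change -1.26, SE 0.44, adjusted p 0.117). EXPA4 had 303, 480.1 and 453 in jaz4-1 and 691, 675 and 713 in Col-0 (log2 fold change -0.78, adjusted p 0.153). EXPA10, an expansin known from leaf growth, had 387, 387 and 446 in jaz4-1 and 549, 531 and 544 in Col-0 (log2 fold change -0.42, adjusted p 0.590). The Col-0 libraries of these 3 genes lay close together, and the adjusted p-values did not pass the threshold.

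The authors' deposited table gives its own log2 fold change and adjusted p-value for each gene and time, with an adjusted p for 40 members at ZT6. By the authors' deposited table, 14 members had an adjusted p under 0.05 at ZT6 (35% of those with a value, beside 6.9% of all genes), 11 of them higher and 3 lower in jaz4-1. The 11 higher genes of the authors' deposited table were the 11 without overlap named above, and the 3 lower ones were EXPA3, EXPA4 and EXPA15. For TCH4 the authors' deposited table has a log2 fold change of 1.05 (adjusted p 0.00480), and for XTH23 it has 1.61 (adjusted p 5.27e-09). Both fold changes are below the limma values given above. How the deposited fold changes were computed is not known here, so their sizes are not compared with those of limma. The authors' deposited table has 0 members under 0.05 at ZT0, of 40 with a value (0.548% of all genes passed). That same authors' deposited table has 0 of 33 at ZT12 (0.797% of all genes) and 0 of 39 at ZT18 (0.377% of all genes).

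Summed over each family, XTH transcripts at ZT6 came to 1754 ± 211 CPM in jaz4-1 and 1407 ± 196 CPM in Col-0, as mean ± SD of 3 libraries. The EXLA genes came to 117 ± 23.9 CPM in jaz4-1 and 46.1 ± 24.4 CPM in Col-0. The alpha-expansins came to 393 ± 30.1 CPM in jaz4-1 and 563 ± 59.2 CPM in Col-0. The XTH sums overlapped between the lines at ZT6, while all EXLA sums were higher and all alpha-expansin sums lower in jaz4-1 libraries than in any Col-0 library. At ZT0 the XTHs summed to 1387 ± 148 CPM in jaz4-1 and 1235 ± 147 CPM in Col-0, and the alpha-expansins to 849 ± 121 CPM in jaz4-1 and 725 ± 36.2 CPM in Col-0. At ZT12 the XTH sums were 1099.6 ± 156 CPM in jaz4-1 and 1120.2 ± 68.4 CPM in Col-0, and at ZT18 they were 1172 ± 74.5 CPM in jaz4-1 and 1316 ± 146 CPM in Col-0. A family sum follows its most abundant members, and no p-value was computed for these sums.

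**Figure D3:**
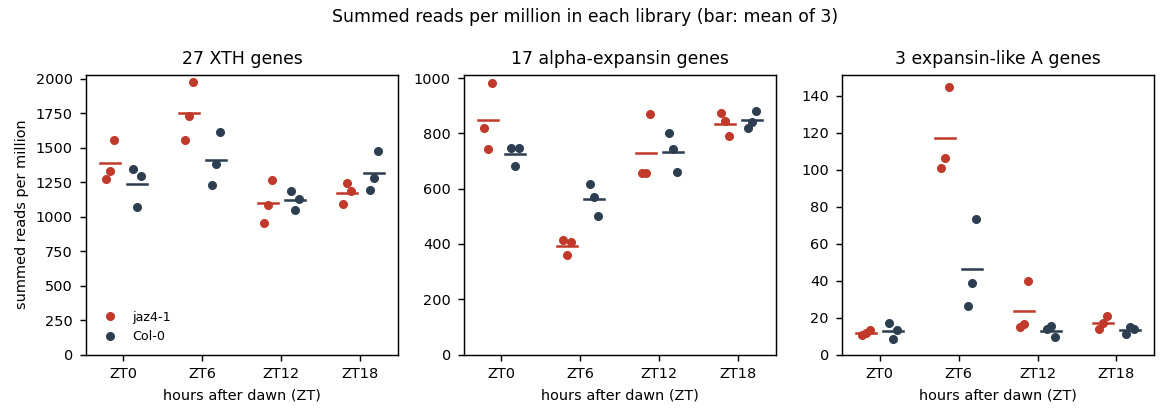
Summed level in CPM of the XTHs, the alpha-expansins and the expansin-like A genes in each library by hours after dawn, jaz4-1 in red left of Col-0 in dark blue; points are libraries and bars the mean of 3. At ZT6 the EXLA sum was 117 ± 23.9 CPM in jaz4-1 and 46.1 ± 24.4 CPM in Col-0, and the alpha-expansin sum was 393 ± 30.1 CPM in jaz4-1 and 563 ± 59.2 CPM in Col-0.

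Of the markers of other cell types, PYK10 and the guard cell sum did not overlap between the lines at ZT6. The summed level of the 7 root genes was 56.3 to 105 CPM in jaz4-1 and 179 to 260 CPM in Col-0. Nearly all of it was PYK10, at 55.9 to 105 CPM in jaz4-1 and 178 to 259 CPM in Col-0. The other 6 root genes together were at 0.225 to 0.977 CPM in jaz4-1 and 0.266 to 0.641 CPM in Col-0, with COBL9, IRT1 and TIP2-3 at 0 in all jaz4-1 libraries and IRT1 and TIP2-3 at 0 in all Col-0 libraries. The sum of 3 guard cell genes was 16.8 to 18.4 CPM in jaz4-1 and 20.1 to 24.3 CPM in Col-0. Xylem and mesophyll sums overlapped between the lines. That of 3 xylem genes was 7.73 to 17.4 CPM in jaz4-1 and 15.7 to 19.7 CPM in Col-0. The 3 leaf mesophyll genes summed to 36952 to 42988 CPM in jaz4-1 and 31709 to 37569 CPM in Col-0. The part of PYK10 and of the guard cell genes in the ZT6 differences of the wall genes was not tested.

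At ZT0, EXPA16 rose in jaz4-1 and was the 1 member called (0.923% of all genes were). This alpha-expansin (AT3G55500, chr3:20574752-20576249, minus strand) had 286, 267 and 331 normalised reads in jaz4-1 and 69.3, 49.8 and 195 in Col-0. Col-0 replicate 3 stood well above the other 2 Col-0 libraries but still below the lowest jaz4-1 library. The log2 fold change was 1.73 (SE 0.42; adjusted p 0.0473). The call was kept only when the library left out was Col-0 ZT0 replicate 3, Col-0 ZT6 replicate 2, Col-0 ZT12 replicate 2, jaz4-1 ZT6 replicate 2, jaz4-1 ZT12 replicate 1 or jaz4-1 ZT12 replicate 2. Leaving out each of the other 18 gave adjusted p-values of up to 0.248, with log2 fold changes of 1.33 to 2.30 over all omissions. It was also lost by edgeR, with the libraries of ZT0 alone, with no filter on low values and without both libraries of few detected genes. At the other times the lines overlapped for EXPA16, as at ZT18, with 294, 279.5 and 298 normalised reads in jaz4-1 and 293, 162 and 249 in Col-0. Guard cell marker sums at ZT0 were 22.4 to 24.1 CPM in jaz4-1 and 11.4 to 17.6 CPM in Col-0, and their part in this result was not tested. At ZT0, 3 members (EXPA16, TCH4 and XTH11) had every jaz4-1 library above every Col-0 library (6.75% of all genes did), and 3 (EXPA10, EXPA13 and XTH8) had every one below (4.62% of all genes did).

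At ZT12 limma called 0 of 42 members (0.321% of all genes). At an unadjusted p under 0.05 there were 7 members (4.88% of all genes). Of the members, edgeR and limma-voom called 0 (0.362% of all genes by edgeR and 0.286% by limma-voom), and DESeq2 called 1, TCH4 (0.841% of all genes). TCH4 had 160.2, 433 and 1947 normalised reads in jaz4-1 and 125, 124 and 185 in Col-0, with 1.84 as log2 fold change (SE 0.60; adjusted p 0.482). The lines overlapped, and jaz4-1 replicate 3 alone was far above the rest. XTH23 had 58.7, 75.4 and 198 normalised reads in jaz4-1 and 34.9, 26.6 and 46.6 in Col-0, without overlap. EXLA1 had 122, 125 and 601 in jaz4-1 and 85.8, 138 and 51.2 in Col-0, with overlap. XTH25 had 0.995, 8.92 and 144 in jaz4-1 and 0.894, 9.49 and 3.41 in Col-0. In each of these genes the high value is that of the same library, jaz4-1 ZT12 replicate 3.

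That library was the highest of the 6 ZT12 libraries in 15 of 42 members (35.7%), against 24.9% of all genes. Beyond the genes already given, they included EXPA10, whose value there was 7819.9 normalised reads, against 1435 and 1262 in the other jaz4-1 libraries and 1679, 1713 and 1789.7 in Col-0. XTH24 behaved alike, with 598, 601 and 2259 in jaz4-1 and 795, 597 and 369 in Col-0. Without this library the log2 fold change averaged over the times was 0.91 for TCH4 (adjusted p 0.0134), 0.87 for EXLA1 (adjusted p 0.0345) and 0.54 for XTH30 (adjusted p 0.00938). At ZT12, 5 members were higher without overlap (EXLA2, XTH6, XTH15, XTH18 and XTH23; 7.49% of all genes) and 2 lower (EXLB1 and EXPA15; 7.16% of all genes).

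At ZT18 limma called 0 of 42 members (0.138% of all genes), as did edgeR (0.127%), DESeq2 (0.28%) and limma-voom (0.0969%). At an unadjusted p under 0.05 there were 4 members (3.03% of all genes). Without overlap, 4 members lay higher in jaz4-1 (EXLA1, EXPB1, XTH25 and XTH30; 5.03% of all genes) and 3 lower (XTH4, XTH8 and XTH17; 5.13% of all genes). EXLA1 had 154, 129 and 258 normalised reads in jaz4-1 and 106, 123 and 109.8 in Col-0. XTH23 showed the opposite order to ZT6, with 86.6, 77.5 and 161 in jaz4-1 and 70.3, 214 and 207 in Col-0, but its libraries overlapped.

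Averaged over the 4 times, XTH30, TCH4 and EXLA1 rose and EXPA3 and XTH8 fell in jaz4-1. These 5 of 42 members were called, against 4.68% of all genes, with 3.28% of all genes called as higher and 1.4% as lower. The log2 fold change of XTH30 was 0.64 (SE 0.14; adjusted p 0.00805). Its jaz4-1 values were 218, 173 and 219 normalised reads at ZT0, 90.5, 117 and 241 at ZT12, and 135, 133 and 180.4 at ZT18. Its Col-0 values were 123, 205 and 158 at ZT0, 59.0, 103 and 91.0 at ZT12, and 121, 119 and 118 at ZT18. The call of XTH30 was kept without any 1 of the 24 libraries, with adjusted p-values of up to 0.0212.

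The average log2 fold change was 1.15 for TCH4 (SE 0.30; adjusted p 0.0344). Outside ZT6 and ZT12 its values were closer, with 378, 317 and 443 normalised reads in jaz4-1 and 295, 168 and 227 in Col-0 at ZT0, and 248, 299 and 440.0 in jaz4-1 and 216, 406 and 241 in Col-0 at ZT18. The lines were separate at ZT0 and overlapped at ZT18. The call was lost without Col-0 ZT0 replicate 2, Col-0 ZT6 replicate 1 or 2, Col-0 ZT12 replicate 1 or 2, Col-0 ZT18 replicate 3, jaz4-1 ZT0 replicate 1 or 3, jaz4-1 ZT6 replicate 1 or 2, or jaz4-1 ZT18 replicate 3, with adjusted p-values of up to 0.0704 and log2 fold changes of 0.91 to 1.36. It was also lost by limma-voom and without both libraries of few detected genes.

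That of EXLA1 was 1.06 (SE 0.28; adjusted p 0.0339). At ZT0 it had 29.9, 64.1 and 122 normalised reads in jaz4-1 and 51.8, 49.8 and 49.8 in Col-0, where the lines overlapped. Its call was lost without Col-0 ZT0 replicate 1, Col-0 ZT6 replicate 1 or 2, Col-0 ZT12 replicate 1 or 3, Col-0 ZT18 replicate 2 or 3, jaz4-1 ZT0 replicate 3, jaz4-1 ZT6 replicate 1, or jaz4-1 ZT18 replicate 1 or 3, with adjusted p-values of up to 0.0710 and log2 fold changes of 0.87 to 1.18. It was also lost by limma-voom and without both libraries of few detected genes.

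XTH8 (AT1G11545, chr1:3878495-3880391, minus strand) fell by 0.38 on the log2 scale (SE 0.10; adjusted p 0.0244). It had 264, 318 and 246 normalised reads in jaz4-1 and 428, 364 and 412 in Col-0 at ZT0, and 495, 576 and 581 in jaz4-1 and 641, 777 and 844 in Col-0 at ZT18. The lines were separate at both times, and they overlapped at ZT6 and ZT12. The call was lost without Col-0 ZT6 replicate 1, Col-0 ZT12 replicate 1, Col-0 ZT18 replicate 3 or jaz4-1 ZT18 replicate 1, with adjusted p-values of up to 0.0537.

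EXPA3 (AT2G37640, chr2:15787523-15790139, minus strand) fell by 0.41 on the log2 scale (SE 0.11; adjusted p 0.0424). Its clearest separation was at ZT6, with 448, 378 and 471 normalised reads in jaz4-1 and 958, 787 and 514 in Col-0, and the lines overlapped at the other times. The call was kept only when the library left out was jaz4-1 ZT0 replicate 1, jaz4-1 ZT6 replicate 3, jaz4-1 ZT12 replicate 2, jaz4-1 ZT18 replicate 2, Col-0 ZT0 replicate 2, Col-0 ZT6 replicate 3 or Col-0 ZT18 replicate 1. Leaving out each of the other 17 gave adjusted p-values of up to 0.0889, and the call was also lost with no filter on low values. With both libraries of few detected genes left out, XTH30 and XTH8 were called on average, 2 of 42 members (4.28% of all genes).

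Whether the difference between the lines depended on the time was tested by an F test across the 4 times. It called 0 of 42 members (0.194% of all genes), with 7 members at an unadjusted p under 0.05 (6.82% of all genes). Calls were 0 by edgeR (0.189% of all genes) and limma-voom (0.158% of all genes) and 1, XTH23, by DESeq2 (1.07% of all genes). XTH23 had the smallest p of the members (0.00269; adjusted p 0.298), ahead of XTH15 and XTH18. The log2 fold changes of XTH23 were 0.14 at ZT0, 2.17 at ZT6, 1.42 at ZT12 and -0.51 at ZT18. Those of TCH4 were 0.74, 1.79, 1.84 and 0.21 at the same times, with an adjusted p of 0.887 for dependence on time. A difference that passed at ZT6 and not at other times was therefore not shown to differ between times for any member by limma without a replicate block.

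Most of these genes changed over the day in both lines. For this comparison the whole reads were scaled over all 24 libraries, and 32 of 42 members (76.2%) were called in jaz4-1, against 53.5% of all genes, and 30 (71.4%) in Col-0, against 49.1% of all genes. Of those called, 16 (38.1% of members) were highest at ZT6 in jaz4-1, beside 13.3% of all genes, and 11 (26.2%) were highest at ZT6 in Col-0, beside 11.7% of all genes. The day was sampled only at these 4 times, so the time of the highest mean is 1 of 4. Called members highest at ZT0 numbered 7 in jaz4-1 (20.5% of all genes) and 7 in Col-0 (18.9% of all genes). Those highest at ZT12 numbered 6 in jaz4-1 (14.1% of all genes) and 5 in Col-0 (12.6% of all genes), and those highest at ZT18 numbered 3 in jaz4-1 (5.59% of all genes) and 7 in Col-0 (6.05% of all genes). A range over 1 on the log2 scale was found in 25 called members in jaz4-1 (59.5%, against 29% of all genes) and 24 in Col-0 (57.1%, against 25.7% of all genes).

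EXPB1, the beta-expansin, had the smallest p for change over time in both lines. Scaled over all libraries, it had 553, 381 and 345 reads at ZT6 and 59.1, 50.7 and 71.4 at ZT18 in jaz4-1, and 417, 426 and 301 at ZT6 and 50.2, 40.5 and 37.5 at ZT18 in Col-0. The highest and lowest times did not overlap, and their means differed 7.05-fold in jaz4-1 and 8.93-fold in Col-0 (adjusted p 8.94e-09 in jaz4-1 and 5.63e-09 in Col-0). EXPB1 was thus highest in the middle of the light period and lowest in the middle of the night in both lines.

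TCH4 had the largest daily range of the tested members. Its mean was 10978 scaled reads at ZT6 and 305 at ZT18 in jaz4-1, a 36-fold range, and 3461 at ZT6 and 122 at ZT12 in Col-0, a 28.3-fold range (adjusted p 1.93e-06 in jaz4-1 and 1.77e-05 in Col-0). EXLA1 ranged 24.5-fold in jaz4-1 and 9.50-fold in Col-0, highest at ZT6 and lowest at ZT0 in both. EXLA2 ranged 4.07-fold in jaz4-1 and 2.54-fold in Col-0 and was highest at ZT6 in both.

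XTH6, XTH27 and EXPA1 formed a second pattern, with their highest means at dawn in both lines. XTH6 had 7750.1, 7779 and 12369 scaled reads at ZT0 and 1539.9, 1525 and 1534 at ZT12 in jaz4-1, and 5332, 5507 and 9653 at ZT0 and 1096, 1471 and 1368 at ZT12 in Col-0, with ranges of means of 6.07-fold in jaz4-1 and 5.21-fold in Col-0. EXPA1, an alpha-expansin known from guard cells, had 10573, 8662 and 17063 at ZT0 and 2052, 1482 and 1162 at ZT6 in jaz4-1, and 6865, 8615 and 9594 at ZT0 and 3195, 2414 and 1658 at ZT6 in Col-0. Its dawn values were above its ZT6 values in every library of both lines, and the ranges between the highest and lowest means were 7.73-fold in jaz4-1 and 4.0-fold in Col-0. XTH27 ranged 4.01-fold in jaz4-1 and 4.91-fold in Col-0.

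XTH31 had its highest mean at dusk. It had 208, 302 and 301 scaled reads at ZT0 and 1654, 2129.5 and 1453 at ZT12 in jaz4-1, and 248, 353 and 344 at ZT0 and 2321, 1788 and 2974 at ZT12 in Col-0. At ZT6 it had 1736, 1471 and 915 in jaz4-1 and 1566, 2118 and 1356 in Col-0, overlapping the dusk values in both lines. Every dusk value was several times every dawn value, with ranges of means of 6.46-fold in jaz4-1 and 7.50-fold in Col-0.

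By family, 9 of the 17 XTHs called in jaz4-1 were highest at ZT6 and 5 at ZT0, and of the 17 called in Col-0, 5 were highest at ZT6, 6 at ZT0 and 5 at ZT18. Of the alpha-expansins, 5 of 10 called in jaz4-1 and 3 of 9 called in Col-0 were highest at ZT12. All 3 EXLA genes were called in jaz4-1 and 2 in Col-0, each highest at ZT6. Among the 30 members called in both lines, 23 were highest at the same time. The matching share of all genes is not given here, so this count is not read as particular to the members. Among the other 7, XTH18, XTH23 and XTH33 were highest at ZT6 in jaz4-1 and ZT18 in Col-0, XTH15 at ZT6 in jaz4-1 and ZT0 in Col-0, EXPA16 at ZT0 in jaz4-1 and ZT18 in Col-0, EXPA10 at ZT12 in jaz4-1 and ZT18 in Col-0, and EXLB1 at ZT18 in jaz4-1 and ZT12 in Col-0. The ZT12 mean of EXPA10 in jaz4-1 rests on replicate 3, and without that library, an omission chosen after seeing the data, EXPA10 was highest at ZT18 in both lines, with means in jaz4-1 of 1140 scaled reads at ZT12 and 1446 at ZT18. The other 6 genes kept their times in jaz4-1 without it. In Col-0 the ZT18 values of XTH18 and XTH23 overlapped those at ZT6, and those of XTH33 overlapped those at ZT0. XTH23 there had 65.5, 198 and 192 scaled reads at ZT18 and 47.9, 105 and 137 at ZT6. A change in the time of the highest mean is a description here. No member passed the limma test without a replicate block for dependence of the line difference on time. Of the 42 members, 10 were not called for change over time in jaz4-1 and 12 were not in Col-0, the abundant XTH7 and EXPA5 among both.

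**Figure D4:**
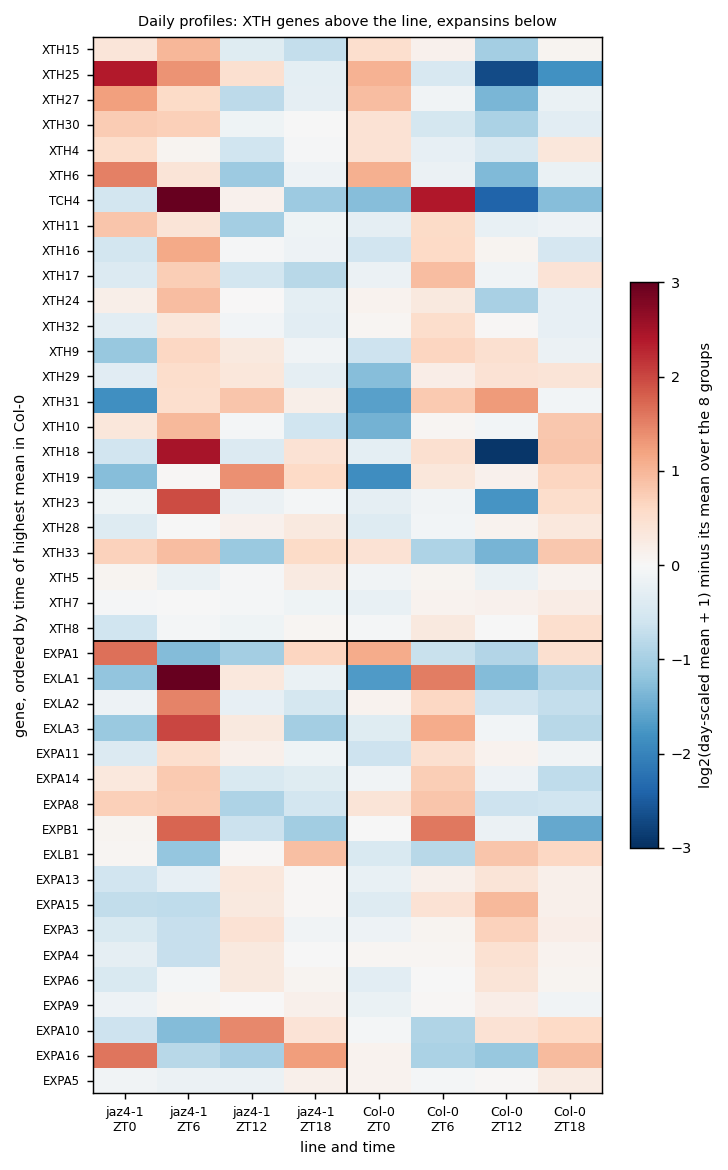
Daily profiles of the 42 tested members in jaz4-1 (left) and Col-0 (right). Colour is log2(scaled mean + 1) of a group minus the gene's mean over the 8 groups of line and time, clipped at 3 either way. Colours therefore hold differences between the lines as well as change over the day. XTHs are above the line and expansins and expansin-like genes below it. Each cell is the mean of 3 libraries. TCH4, EXLA1 and EXPB1 are highest at ZT6 in both lines, and XTH6, XTH27 and EXPA1 at ZT0.

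Levels between genes were compared per kilobase of coding sequence, as CPM per kb over the 12 libraries of each line. By the mean of all 24 libraries the highest levels were those of EXPA1, XTH4 and XTH6, while in Col-0 alone they were those of XTH4, EXPA1 and XTH9. EXPA1 averaged 312 ± 250 in jaz4-1 and 276 ± 148 in Col-0 (mean ± SD of 12 libraries), XTH4 269 ± 63.1 in jaz4-1 and 290.3 ± 87.5 in Col-0, and XTH6 239.9 ± 148 in jaz4-1 and 194 ± 109 in Col-0. XTH9 averaged 187 ± 87.7 in jaz4-1 and 217 ± 98.3 in Col-0, EXPA6 170.2 ± 53.7 in jaz4-1 and 187 ± 52.1 in Col-0, and XTH7 164 ± 23.4 in jaz4-1 and 189 ± 43.4 in Col-0. The SDs hold the change over the day, and these 6 neighbours in the order overlapped within them. TCH4 ranked 8 by its mean of all libraries, at 163 ± 244 in jaz4-1 and 62.6 ± 103 in Col-0. Both genes called at ZT6 were of low level, with XTH23 at 9.62 ± 7.50 in jaz4-1 and 5.66 ± 4.20 in Col-0 and XTH30 at 8.51 ± 2.36 in jaz4-1 and 5.72 ± 1.82 in Col-0.

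**Figure D5:**
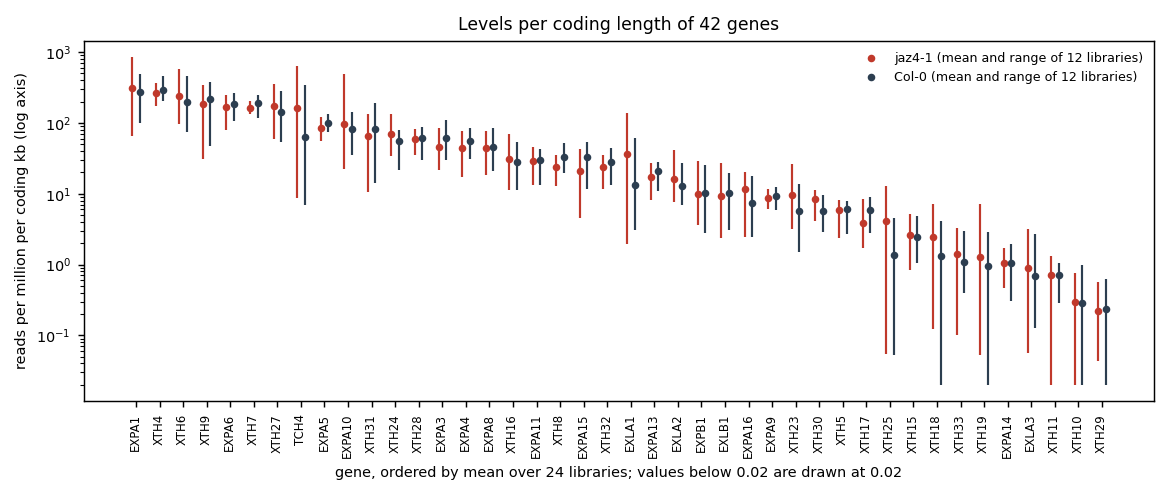
Level of each of the 42 tested members in CPM per kb of coding sequence (log axis), ordered by the mean of all 24 libraries. The jaz4-1 line is in red and Col-0 in dark blue, and values under 0.02 are drawn at 0.02. EXPA1, XTH4 and XTH6 are the highest 3, and the members that did not pass the filter on low counts are not drawn.

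Several members lie side by side in the genome. XTH25 is next to TCH4 on chromosome 5, XTH14 next to XTH23 and XTH24, XTH18 and XTH19 together on chromosome 4, and EXLA3 next to EXLA1 on chromosome 3. These neighbours differed in level, as the values of TCH4 and XTH25 and of EXLA1 and EXLA3 at ZT6 show, and XTH14 had reads in 1 library. Of the 50-base stretches of a member's coding sequence, at most 2.68% (XTH19, shared with XTH17 and XTH18) occurred in another gene, and 1.07% for EXLA1; mixing of reads between copies was not tested.

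Other genes of the wall and of touch signalling were taken from lists. Beside their calls, 2.95% of all genes were called at ZT6 and 4.68% on average over the times. The calls of list genes are those of limma with all libraries, and their results under the alternatives are not given here. Without both libraries of few detected genes, 1.21% of all genes were called at ZT6. Of 8 genes of xyloglucan synthesis, XXT1, a xylosyltransferase, and CSLC4, the synthase of the glucan backbone, rose in jaz4-1 at ZT6. XXT1 had 1375, 1052 and 1493 normalised reads in jaz4-1 and 555, 628 and 773 in Col-0 (log2 fold change 1.00, SE 0.18, adjusted p 0.00278). CSLC4 had 2120.2, 2039 and 2075 in jaz4-1 and 1048, 1371 and 1189 in Col-0 (log2 fold change 0.80, SE 0.17, adjusted p 0.0135). In both genes the lines were separate. Of 3 genes that trim xyloglucan, AXY8, a fucosidase, rose by 0.66 (SE 0.13, adjusted p 0.00827). The list medians at ZT6 were 0.33 for synthesis and 0.20 for trimming, beside -0.04 for all genes.

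Of 6 tested pectin genes, 1 rose at ZT6, the pectin methylesterase gene PME41. It had 534, 514 and 576 normalised reads in jaz4-1 and 54.7, 100.2 and 156 in Col-0 (log2 fold change 2.50, SE 0.43, adjusted p 0.00243). Of 6 touch and calmodulin genes, the calmodulin-like TCH2 rose by 1.02 (SE 0.28, adjusted p 0.0486) and CAMTA3, a calmodulin-binding transcription factor gene, by 0.64 (SE 0.12, adjusted p 0.00423). On average over the times 3 touch and calmodulin genes were called as higher, TCH3 among them (log2 fold change 1.16, SE 0.20, adjusted p 0.00210). Of 8 growth regulators, PIF5, a light-controlled transcription factor gene, rose by 0.78 (SE 0.15, adjusted p 0.00643). The median of this list at ZT6 was -0.13, beside -0.04 for all genes. PIF4 and PIF5 had every jaz4-1 library above every Col-0 library (13.9% of all genes did). HAT2, GA20OX1, IAA19 and PRE1 had every one below (12.9% of all genes did).

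Of the 9 genes of primary wall cellulose, 3 of secondary wall cellulose, 4 plasma membrane proton pumps and 9 brassinosteroid genes, limma called 0 in any line difference. At ZT6 an unadjusted p under 0.05 was reached by 4 genes of primary wall cellulose, 0 of secondary wall cellulose, 1 proton pump and 2 brassinosteroid genes, beside 20.4% of all genes. Their median log2 fold changes at ZT6 were 0.34 for primary cellulose, -0.14 for secondary cellulose, 0.11 for proton pumps and 0.17 for brassinosteroid genes.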

How the data were processed

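Whole-rosette RNA-seq was measured in 24 libraries, 3 per line and time. The submitters' processing notes name HISAT2, featureCounts and TAIR10; versions, settings and strand were not given in the sources used here. In the authors' deposited table the unit is named RPKM per the file headers, whereas the values are a signal unit: whole reads divided by 1 size factor per library. Multiplied by it, 100% of values were whole to within 0.001 reads. The authors scaled each time apart by median-of-ratios, so deposited values compare lines at a time; their factors differ by 6.89% to 17.3% from factors over all 24 libraries. The authors' deposited log2 fold changes and p-values are used only where named.

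Line differences were tested with limma 3.58.1 (R 4.3.3; trend, robust empirical Bayes) on log2(value + 1) of the deposited signal, over all 24 libraries, each combination of line and time having its own mean (residual degrees of freedom 16, median prior 6.24). Genes passed edgeR's filterByExpr (edgeR 4.0.16; minimum count 10, minimum total count 15). Adjusted p is Benjamini-Hochberg over 19614 genes, called under 0.05. Change over time was tested on recovered reads scaled over all 24 libraries. Fold changes on this scale understate low genes. No tested group had more than 3 libraries, which limits precision. DESeq2 1.42.0, edgeR's quasi-likelihood test and limma-voom on the recovered reads, TMM scaling, other pseudocounts and filters, each time alone, a replicate block and omitted libraries were alternatives. Scripts were tested on simulated data.

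Because the table held normalised values, limma replaced the count test planned for raw counts. Gene positions and windows came from RefSeq TAIR10.1, to which 24297 loci matched. Named genes were TCH4 and XTH23, every member called in a line difference, per line the 6 members with the smallest p for change over time, the 6 with the highest level per coding length, and called genes of the lists. Other members and genes of the lists are named where their libraries did not overlap, or for their position, after their values were seen. The members, lists and tests were chosen with earlier results of these data known.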

Additional observations from a re-analysis of the deposited data

How the results depend on the processing

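Of 8 named fold changes with a call, all 275 values under the alternatives kept their direction, 195 kept the call and 80 lost it. For a fold change at a single time, omitting a library of another time leaves the value unchanged. The direction was fixed in advance in those cases. Each share in parentheses is that of all genes called the same way. The members called at ZT6 numbered 2 (2.95%), against 7 by DESeq2 (5.93%), 7 with the libraries of that time alone (2.78%), 5 by limma-voom (3.07%) and 0 without both libraries of few detected genes (1.21%). At ZT0 the 1 call (0.923%) became 0 by edgeR (0.77%), with that time alone (0.161%), with no filter on low values (0.669%) and without both of those libraries (0.624%). At ZT12, DESeq2 called 1 (0.841%). On average over the times 5 (4.68%) became 11 by DESeq2 (8.47%), 3 by limma-voom (4.8%) and 2 without both libraries (4.28%). For the dependence on time, DESeq2 called 1 (1.07%) and limma without a replicate block 0 (0.194%). The cause was not tested.

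With each library left out in turn, calls ran from 0 to 2 at ZT0, 0 to 4 at ZT6, 0 to 1 at ZT12, 0 to 0 at ZT18, 1 to 8 on average, 0 to 0 for the dependence on time, 28 to 33 for change over time in jaz4-1 and 25 to 31 in Col-0. At ZT6 they were 0 without Col-0 ZT6 replicate 1 or jaz4-1 ZT6 replicate 2. On average they were 1 without Col-0 ZT6 replicate 1, Col-0 ZT12 replicate 1 or Col-0 ZT18 replicate 3, and 8 without Col-0 ZT18 replicate 1. The shares of all genes called without each library are not given here, so these ranges are not read as particular to the members.

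With the replicate number as a block, calls were 9 at ZT6 (6.72% of all genes), 10 on average (7.64%) and 1 for the dependence on time (0.347%), and the average call of EXLA1 was lost. Same-numbered libraries of the lines had correlated deviations of -0.0978 to 0.327, not all above 0.1, so the numbers were not taken as a pairing. At ZT0 and ZT6 each same-numbered value was above the highest with another number. At ZT6 they were 0.0555, 0.128 and 0.133, against 0.0167, -0.000893 and -0.0530. At ZT12 and ZT18 some same-numbered values were below, and another number reached 0.365. Whether the libraries were paired was not tested.

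Chosen after seeing the data, the omission of jaz4-1 ZT6 replicate 2 gave 12 members higher and 7 lower without overlap at ZT6, and that of both libraries of few genes left 16 members in jaz4-1 (12.3% of all genes) and 10 in Col-0 (11.5% of all genes) called and highest at ZT6. Without both libraries of few genes, 31 members were called for change over time in jaz4-1 (52.9% of all genes) and 27 in Col-0 (48.7%). Of them, 7 in jaz4-1 (20.5% of all genes) and 6 in Col-0 (18.6%) were highest at ZT0. Those highest at ZT12 numbered 5 in jaz4-1 (14.8%) and 4 in Col-0 (12.3%). Without jaz4-1 ZT12 replicate 3, 15 members were called and highest at ZT6 in jaz4-1 (13% of all genes).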
